A study of Mus musculus with 15 samples.

Results

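The comparison described here is the effect of ezetimibe in the distal jejunum of mice, estimated once over both genotypes of the study. All 15 RNA-seq samples of the series entered it, 8 from mice that ate ezetimibe and 7 from mice that did not, with genotype as the only other term and no interaction term. The groups were 4 wild-type (WT) samples on the control diet, 4 WT samples on the ezetimibe diet, 3 Aster-B/C knockout (KO) samples on the control diet and 4 KO samples on the ezetimibe diet. The mice were male C57BL/6 animals of 13 to 15 weeks, and all of them, controls included, were fed cholesterol at 0.08% of the diet. The ezetimibe diet held the drug at 0.01%. The KO was global, so it was not restricted to the intestine. The sample titles name distal jejunum and do not say whether the whole wall or a part of it was sequenced. The labels do not say whether animals of one group shared a cage, a litter or a day of collection, and each library was taken as 1 mouse. If samples share a source that the labels do not record, the p-values below measure only the spread between these samples.

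Dietary cholesterol enters the enterocyte through NPC1L1, a transporter of the brush border, and ezetimibe binds NPC1L1 and blocks that step. Inside the cell, the Aster proteins (encoded by Gramd1a, Gramd1b and Gramd1c) bring cholesterol of the cell surface to the endoplasmic reticulum, and the series asks how this transport and NPC1L1 act together. When sterol in the endoplasmic reticulum is low, the SCAP-escorted transcription factor SREBP2 is cut free and switches on the genes of cholesterol synthesis. When sterol is plentiful, oxysterols activate the liver X receptors (LXR), which switch on the efflux pumps Abca1, Abcg5 and Abcg8.

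Values below are normalised read counts, that is, read counts divided by a size factor of each library, so they compare a gene between libraries and not 1 gene with another. Each library held between 13855034 and 19307079 reads in genes. Neither this depth (exact permutation of diet within genotype, two-sided, p = 0.249) nor the share of mitochondrial reads (4.16% without and 4.13% with ezetimibe, p = 0.819) differed detectably with diet. WT control replicate 4 and KO ezetimibe replicate 3 lay at the opposite ends of the first principal component, which held 27.65% of the variance. The targeted genes followed the labels only in part as RNA. Gramd1c lay between 1059 and 1845 in the WT libraries and between 71.8 and 194 in the KO libraries, whereas Gramd1b lay between 2274 and 4046 in the WT and still between 962 and 2086 in the KO. Neither passed the test for ezetimibe (log2 difference 0.35 for Gramd1b and -0.20 for Gramd1c). For Gramd1b the difference was 0.06 in the WT and 0.69 in the KO. Its KO controls lay between 962 and 1247 and its KO ezetimibe libraries between 1744 and 2086. Markers of enterocytes (Alpi, Sis, Lct and 7 others) were abundant in every library. The markers of ileum (Slc10a2, Fabp6, Fgf15) were detected at summed levels of 954 to 5384, with KO ezetimibe replicate 3 highest for Fabp6 at 2535. Smooth muscle markers (Myh11, Des and others, 6 in all) summed to only 26.7 to 210 on the control diet and 26.6 to 103 on ezetimibe.

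Ezetimibe changed 231 of 14299 tested genes, or 1.62%, at an adjusted p under 0.05 (limma on log2 values, Benjamini-Hochberg). Of these 184 rose (1.29% of genes tested) and 47 fell (0.329%). The median size among the changed genes was 0.67 on the log2 scale. Of the changed genes, 55 rose by more than 1 and 8 fell by more than 1. Over all tested genes the median difference was -0.0011 on the log2 scale. The size factors level the typical gene between libraries, so this median cannot show whether all genes shifted together. The steepest fall was that of the sterol efflux pump Abca1, and 71 of the 184 genes that rose belonged to at least 1 of the gene lists used below. The largest listed groups among them were 26 genes of the interferon response and 17 of cholesterol synthesis. The number of changed genes depended on single libraries. It became 531 without WT control replicate 1, and it lay between 113 and 132 without WT control replicate 2, WT control replicate 4, WT ezetimibe replicate 3, KO control replicate 1, KO control replicate 2 or KO ezetimibe replicate 2, each left out alone. Of the 231 genes, 101 passed in each of the 15 fits that left out 1 library, 87 of them higher on ezetimibe.

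Abca1 moves cholesterol out of the cell and is a classic LXR target. Its values, like those of the genes below, are given in the order of the replicate numbers. Abca1 was 2299, 1556, 1735 and 1446 in the WT control libraries and 213, 128, 196 and 196 in the WT ezetimibe libraries. The KO values were 601, 439 and 641 on the control diet and 115, 84.7, 105 and 98.0 on the ezetimibe diet. No ezetimibe library reached the lowest control library, in either genotype or across them, although KO controls were already below WT controls. The log2 difference was -2.89 ± 0.161 (SE, adjusted p = 3.73e-08), with -3.26 in the WT and -2.46 in the KO. The gene lies at chr4:53030787-53159895 on the minus strand (mm10). Abcg5, a subunit of the apical sterol export pump, fell by 0.73 ± 0.10 (log2, SE, adjusted p = 0.000977), from 3978 to 6011 on the control diet to 2610 to 3639 on ezetimibe, again with no overlap. These were the 2 of 12 tested LXR targets that fell, against 0.329% of all tested genes, and none rose. The list's median was -0.28. Its remaining members did not pass: Abcg8, the partner of Abcg5, had -0.52 (adjusted p = 0.0902) and Apoe -1.23 (adjusted p = 0.0537), while Abcg1 had 0.01 and Srebf1 had -0.13. None of 7 sterol nuclear receptor genes passed, among them Nr1h2, which encodes LXR beta (0.20, adjusted p = 0.0954), and Nr1h4, which encodes the bile acid receptor FXR (-0.42, adjusted p = 0.149).

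Cholesterol synthesis rose along nearly its whole length. Of 20 enzymes tested, 17 rose and none fell, against 1.29% of all tested genes that rose, and all 20 differences were positive, with a median of 0.87. The count lay between 15 and 18 in the fits without 1 library. In the early steps, from acetyl units to squalene epoxide, 9 of 10 rose with a median of 1.02. They were Acat2 (0.58), Hmgcs1 (0.89), Mvk (1.07), Pmvk (1.02), Mvd (0.86), Idi1 (1.15), Fdps (1.02), Fdft1 (1.20) and Sqle (1.33). In the late steps, from lanosterol to cholesterol, 8 of 10 rose with a median of 0.62, led by the demethylase Cyp51 (1.34 ± 0.138, adjusted p = 5.53e-05) and the oxidase Msmo1. The others were Nsdhl (0.88), Hsd17b7 (0.68), Lss (0.65), Tm7sf2 (0.58), Sc5d (0.44) and Dhcr7 (0.43). Lss held in 4 and Acat2 in 14 of those fits. In 10 of the 20 enzymes every ezetimibe library lay above every control library, against 0.434% of all tested genes that separated the diets fully in either direction.

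Msmo1 removes methyl groups from the sterol ring and had the smallest p of the genes that rose. In the WT, Msmo1 was 1137, 944, 1124 and 1201 with the control diet and 2048, 1853, 2032 and 2126 with ezetimibe. Control KO libraries held 1245, 1558 and 1300, and ezetimibe KO libraries 2993, 2538, 3333 and 2997. The diets did not overlap in either genotype or between them, and the 4 KO ezetimibe libraries were the highest of all. The log2 difference was 0.99 ± 0.0795 (SE, adjusted p = 5.60e-06), and the gene lies at chr8:64718139-64733792 on the minus strand (mm10).

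The promoters of 2 of these enzymes, Mvk and Hmgcs1, are shown because the genes rose together and carry the elements known from sterol-regulated promoters. SREBP2 binds sterol regulatory elements and works with the factor NF-Y, which binds the letters CCAAT. The stretches are the 250 bases before the RefSeq start (GRCm38.p6), printed in the direction of transcription. Capitals mark CCAAT on either strand (read as ATTGG on the other) and, in Hmgcs1, also 1 match to the sterol element TCACNCCAC. The Mvk stretch is chr5:114444019-114444268 on the plus strand and the Hmgcs1 stretch is chr13:119690101-119690350 on the plus strand.
Mvk: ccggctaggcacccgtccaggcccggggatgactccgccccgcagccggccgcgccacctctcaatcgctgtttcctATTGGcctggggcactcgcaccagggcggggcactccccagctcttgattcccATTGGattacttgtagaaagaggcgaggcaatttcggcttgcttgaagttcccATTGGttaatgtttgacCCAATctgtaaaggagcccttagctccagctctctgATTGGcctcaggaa
Hmgcs1: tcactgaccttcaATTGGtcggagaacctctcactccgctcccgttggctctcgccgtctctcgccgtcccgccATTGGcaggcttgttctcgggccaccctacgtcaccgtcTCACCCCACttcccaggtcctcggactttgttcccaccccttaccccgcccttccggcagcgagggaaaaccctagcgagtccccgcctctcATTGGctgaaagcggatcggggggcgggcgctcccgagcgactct
The Mvk stretch held 5 CCAAT matches and no sterol element, and the Hmgcs1 stretch held 3 CCAAT matches. Of the 20 enzymes, 15 had a promoter in the RefSeq table, and 14 of these (93.3%) held CCAAT on at least 1 strand, against 40.3% of the 10421 tested genes with a promoter. TCACNCCAC was found in 1 of the 15, Hmgcs1, against 1.31% of the same genes. Both shares cover listed enzymes whether or not they rose, and describe the list and not the response to ezetimibe. The 2 motifs were searched on both strands and share no match here. A match describes letters and is not evidence of binding, and a missing match says only that the letters are not in this window.

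The sensors of the pathway rose in 2 members of 11, against 1.29% of all tested genes. Insig1, which holds SCAP and SREBP2 in the endoplasmic reticulum when sterol is high and is itself an SREBP target, rose by 1.12 ± 0.0990 (log2, SE, adjusted p = 1.06e-05). Without the drug Insig1 stood at 581, 583, 767 and 933 in WT and at 1374, 1359 and 1184 in KO libraries. With it the values were 1353, 1621, 1803 and 1568 in the WT and 2721, 2479, 3014 and 2772 in the KO. Within each genotype all ezetimibe libraries were above all controls, but the lowest WT ezetimibe library lay within the range of the KO controls. Srebf2, which encodes SREBP2, rose by 0.71 ± 0.0837 (adjusted p = 0.000223). Srebf2 was 932, 1195, 1200 and 1400 in the WT control libraries and 2029, 2276, 1818 and 2042 in the WT ezetimibe libraries. The KO values were 1466, 1454 and 1450 on the control diet and 2082, 2048, 2306 and 2545 on the ezetimibe diet. Here the 8 ezetimibe libraries were above all 7 controls. The other 9 of 11 sensing genes did not pass, with Scap at -0.07, Insig2 at 0.07 and Mbtps1, the first SREBP protease, at 0.14. Insig1 lies at chr5:28071363-28078662 on the plus strand (mm10) and Srebf2 at chr15:82147181-82205379 on the plus strand (mm10).

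Among other genes that SREBP2 is known to drive, 3 of 8 rose, against 1.29% of all tested genes, and the median was 0.35. Mmab, a cobalamin enzyme that shares its promoter region with Mvk, rose by 0.62 (adjusted p = 0.0168). The sterol transfer gene Stard4 (0.28) did not pass.

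Npc1l1, the gene of the drug's target, passed narrowly. In the WT, Npc1l1 was 18129, 13905, 16324 and 13664 with the control diet and 19800, 16502, 22690 and 16851 with ezetimibe. Control KO libraries held 15432, 12626 and 19462, and ezetimibe KO libraries 27277, 26229, 35340 and 25474. Among all 14299 tested genes, the diets did not overlap in 2577 in the KO and in 496 in the WT. For Npc1l1 they did not overlap in the KO, whereas in the WT 2 ezetimibe libraries lay within the control range. The log2 difference was 0.55 ± 0.131 (SE, adjusted p = 0.0435), with 0.29 in the WT and 0.86 in the KO (limma interaction, adjusted p = 0.681). The call held in 4 of the 15 fits that left out 1 library, where the difference stayed between 0.46 and 0.61. The gene lies at chr11:6211013-6230143 on the minus strand (mm10). None of the other 18 tested genes of sterol uptake and transfer passed. Of the 7 tested genes for cholesterol ester turnover, Ces1g, a carboxylesterase, rose by 1.06 and Nceh1, a cholesteryl ester hydrolase, fell by 0.62 (adjusted p = 0.0181 and 0.0390). Ces1g held in all 15 and Nceh1 in 6 of the fits without 1 library. Of all tested genes, 1.29% rose and 0.329% fell.

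**Figure D1:**
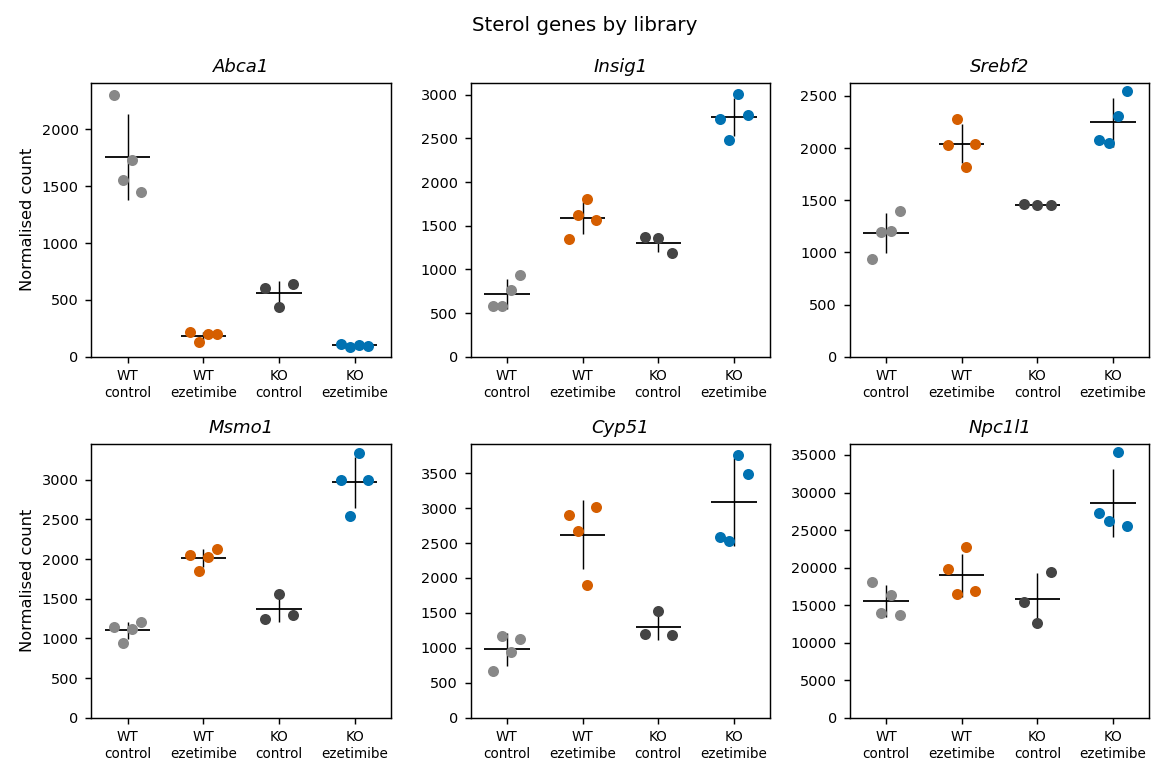
Normalised read count (linear axis from 0) of Abca1, Insig1, Srebf2, Msmo1, Cyp51 and Npc1l1 in the 4 groups; points are libraries, horizontal lines means and vertical bars ± 1 SD. Abca1 is low in all 8 ezetimibe libraries (84.7 to 213), the other genes are high, and Npc1l1 overlaps between diets in the WT.

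The interferon response was the largest listed group among the genes that rose. It is a programme of antiviral genes that cells switch on when interferon, or foreign nucleic acid in the cell, activates transcription factors of the STAT and IRF families. Of 31 listed genes, all tested, 26 rose and none fell, against 1.29% of all tested genes that rose. All 31 differences were positive, as were 7112 of all 14299, and the list's median was 1.01. The medians were 1.17 in the WT and 0.93 in the KO. The count lay between 19 and 29 in the fits without 1 library, and it was 17 when WT control replicate 4 and KO ezetimibe replicate 3 were both left out, an alternative chosen after seeing the data. Among those that rose were Ifi44 (2.28), the nucleic acid sensor Zbp1 (1.72), Oas2 (1.63) and Oas3 (1.26), which make a signal for RNA decay, the ubiquitin-like modifier Isg15 (1.25) and the RNA sensors Ifih1 (0.66) and Ddx58 (0.60). The factors Stat2 (0.83), Irf7 (0.76) and Irf9 (0.46) rose as well. The 5 that did not pass were Ifit2, Oasl1, Rsad2, Mx1 and Cmpk2. Because several of these genes have close copies (the Oas1 and Ifit groups), reads may be shared between them.

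Ifit1, which binds viral RNA, serves as the example of the group. Without the drug Ifit1 stood at 1086, 766, 705 and 588 in WT and at 622, 479 and 999 in KO libraries. With it the values were 2041, 2239, 3184 and 2011 in the WT and 2653, 2329, 2311 and 757 in the KO. In the WT every ezetimibe library lay above every control. In the KO 3 ezetimibe libraries did so, and the fourth, replicate 4, lay inside the control range. The log2 difference was 1.53 ± 0.239 (SE, adjusted p = 0.00331), and the gene lies at chr19:34640871-34650009 on the plus strand (mm10). Igtp, an interferon-inducible GTPase that acts on vacuoles of intracellular parasites, rose by 1.93 ± 0.301 (adjusted p = 0.00321). Igtp was 781, 439, 822 and 496 in the WT control libraries and 2076, 2187, 2692 and 1200 in the WT ezetimibe libraries. The KO values were 247, 299 and 626 on the control diet and 2026, 1825, 3256 and 654 on the ezetimibe diet. Here too KO ezetimibe replicate 4 was the lowest ezetimibe library, although it was just above the highest KO control. The gene lies at chr11:58199556-58207591 on the plus strand (mm10). Of 14 tested interferon-inducible GTPases 8 rose, against 1.29% of all tested genes, with a median of 1.01 over the 14. These were Igtp, Irgm1 (1.21), Irgm2 (1.47), Gbp3 (0.97), Gbp4 (0.64), Gbp6 (1.64), Gbp7 (1.14) and Gbp9 (0.77). This count was less stable: it was 5 without WT ezetimibe replicate 3, 2 without KO control replicate 1, 4 without KO control replicate 2 and 1 with WT control replicate 4 and KO ezetimibe replicate 3 both left out.

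KO ezetimibe replicate 4 thus stood apart in one group of genes and not in the other. Of the 31 interferon genes, 5 were above every KO control in that library, whereas between 27 and 31 were above every control of their own genotype in each of the other 7 ezetimibe libraries. Of the 20 cholesterol synthesis genes, 19 were above every KO control in KO ezetimibe replicate 4, and the other 7 ezetimibe libraries had between 15 and 19. In KO ezetimibe replicate 4 Abca1 was 98.0, within the range of the other KO ezetimibe libraries. There Ptprc, the leukocyte surface gene Cd45, chosen after its values were seen, was 791, above the KO controls at 490 to 628. Without KO ezetimibe replicate 4 the fit called 257 genes, 29 of the 31 interferon genes among them, and 198 of the 231 calls were shared.

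**Figure D2:**
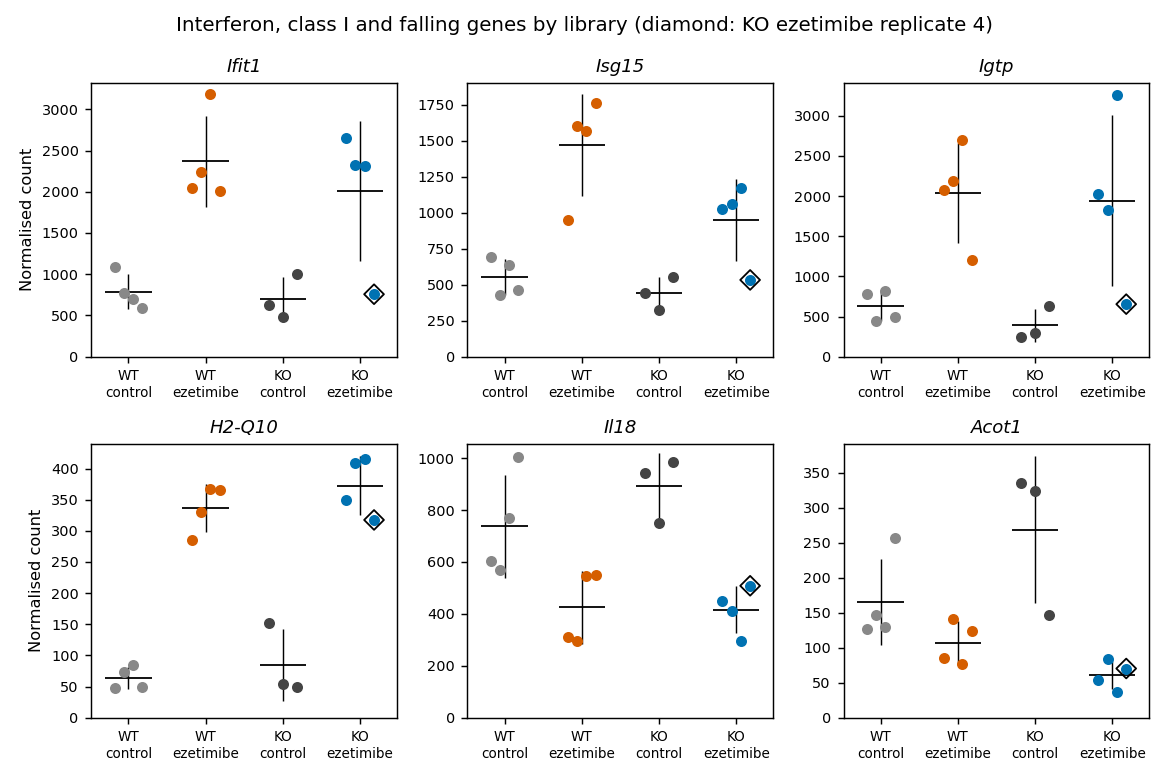
Normalised read count (linear axis from 0) of Ifit1, Isg15, Igtp, H2-Q10, Il18 and Acot1 in the 4 groups; points are libraries, lines means, vertical bars ± 1 SD, and the diamond is KO ezetimibe replicate 4. The diamond lies near the KO controls for Ifit1 and Isg15 and with the other ezetimibe libraries for H2-Q10, Il18 and Acot1.

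**Figure D3:**
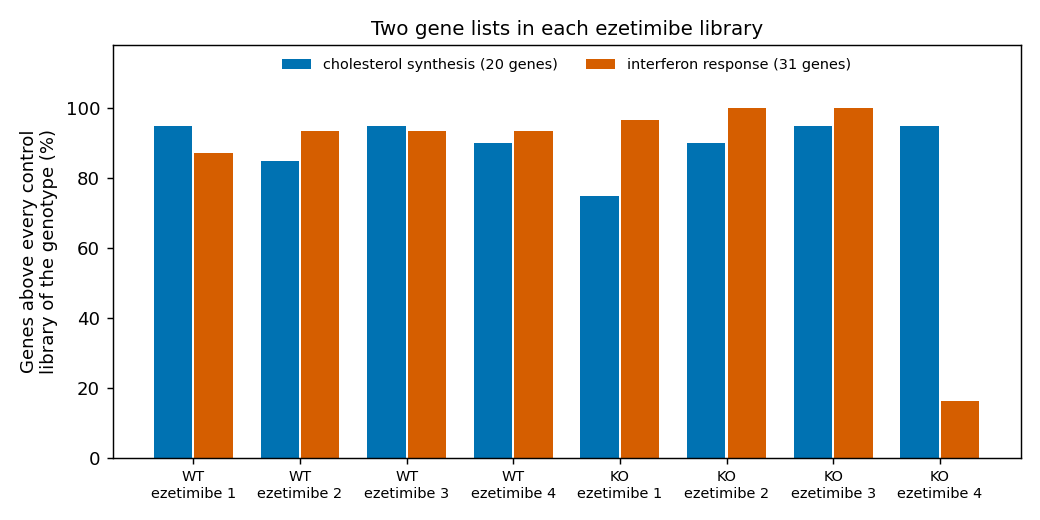
Share of the 31 interferon genes and of the 20 cholesterol synthesis genes that lay above every control library of the same genotype (percent, vertical axis), for each of the 8 ezetimibe libraries. KO ezetimibe replicate 4 has 5 of 31 interferon genes and 19 of 20 synthesis genes above the controls. The share over all tested genes was not counted.

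The promoters of Isg15 and Ifit1 are shown because both genes rose and the interferon-stimulated element is known to drive them. It was searched as AAANNGAAA on both strands. Capitals mark the matches in the 250 bases before the RefSeq start (GRCm38.p6), in the direction of transcription. The stretches are chr4:156200819-156201068 on the minus strand for Isg15 and chr19:34640639-34640888 on the plus strand for Ifit1.
Isg15: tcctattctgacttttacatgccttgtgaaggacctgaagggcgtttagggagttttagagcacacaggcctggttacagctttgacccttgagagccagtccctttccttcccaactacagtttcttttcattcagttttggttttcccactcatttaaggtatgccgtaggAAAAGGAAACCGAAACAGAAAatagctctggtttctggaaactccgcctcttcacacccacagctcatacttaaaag
Ifit1: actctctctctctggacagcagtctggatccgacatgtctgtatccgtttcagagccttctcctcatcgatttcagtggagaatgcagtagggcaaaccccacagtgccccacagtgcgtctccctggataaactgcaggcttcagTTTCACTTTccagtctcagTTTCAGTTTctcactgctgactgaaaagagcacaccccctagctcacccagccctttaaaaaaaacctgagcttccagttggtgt
Isg15 held 3 overlapping matches and Ifit1 held 2, on the other strand. Over both interferon lists, 30 genes had a promoter in the table and 21 of them (70%) held the motif, against 8.78% of the 10421 tested genes with a promoter. This share covers listed genes whether or not they rose. It describes the lists and not the response to ezetimibe. Among all genes that rose on ezetimibe, listed ones included, 37 of 137 with a promoter held the motif (27.0%), and among those that fell, 3 of 39 (7.69%).

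Antigen presentation by class I molecules, which display peptides from inside the cell to T cells and are themselves raised by interferon, also rose in part. Of 14 tested class I genes 5 rose, against 1.29% of all tested genes, with a median of 0.43. They were H2-K1 (0.56), H2-Q4 (0.68), H2-Q6 (1.06), H2-Q7 (0.95) and H2-Q10, whereas H2-D1 (0.37) and B2m (0.48) did not pass. Of 12 genes for loading peptides, 6 rose: the peptide pumps Tap1 (0.87) and Tap2 (0.59), the bridging chaperone Tapbp (0.53), the immunoproteasome subunits Psmb8 (0.70) and Psmb9 (0.60) and the regulator Nlrc5 (1.35). The loading count was 2 without WT control replicate 2, WT control replicate 4, WT ezetimibe replicate 3, KO control replicate 1, KO control replicate 2 or KO ezetimibe replicate 2, and 3 without WT ezetimibe replicate 2, KO ezetimibe replicate 1 or KO ezetimibe replicate 3. The class I count was 8 without WT control replicate 1 or KO ezetimibe replicate 4. In the stretch of chromosome 17 from 33 to 37 Mb (mm10), which holds most class I genes, 13 of 160 tested genes rose and none fell (8.13%, against 1.29% of all tested genes that rose). Class I genes named above, H2-Q10 among them, lie in this stretch, so its count partly repeats theirs. H2-Q genes are near copies of each other, so their counts may share reads.

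H2-Q10 had the largest rise among these and was above every control in each ezetimibe library. In the WT, H2-Q10 was 47.7, 73.6, 84.5 and 49.9 with the control diet and 285, 331, 367 and 366 with ezetimibe. Control KO libraries held 152, 54.3 and 48.7, and ezetimibe KO libraries 349, 410, 414 and 317. All 8 ezetimibe libraries were above all 7 controls, KO ezetimibe replicate 4 included. The log2 difference was 2.37 ± 0.202 (SE, adjusted p = 8.43e-06), with 2.42 in the WT and 2.31 in the KO. The gene lies at chr17:35470089-35474563 on the plus strand (mm10).

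Markers of immune cells were read beside these genes, with 1.29% of all tested genes rising and 0.329% falling. All 14 T and NK cell markers had positive differences, with a median of 0.47, and 1 passed, the chemokine Ccl5 (0.60, adjusted p = 0.0475, held in 4 of the 15 fits without 1 library). Their summed level was 6830 to 9416 against 4772 to 7979 in the WT and 5101 to 7025 against 3675 to 4931 in the KO, ezetimibe first. Ptprc, chosen for mention after its values were seen, rose by 0.45 (adjusted p = 0.0172). None of the 7 MHC class II genes passed, and their median was 0.60. It was 0.34 without KO control replicate 1, in which Cd74, the class II chaperone, was 3871 against 12103 and 13267 in the other KO controls. None of 8 B and plasma cell markers passed, with a median of -0.50 (-0.18 in the WT and -1.04 in the KO). Among them Igha, the heavy chain of IgA, had -1.14 (adjusted p = 0.235) and Jchain, which joins IgA units, had -1.08 (adjusted p = 0.251). Their summed level was 1794 to 19690 on ezetimibe (median 9768) and 5995 to 41681 on the control diet (median 22056). Of 11 macrophage and myeloid markers, 10 had negative differences, the median was -0.87 and 1 passed, the complement gene C1qc, which fell by 1.34 (adjusted p = 0.0162). Their summed level was 360 to 608 in the KO ezetimibe libraries against 879 to 1175 in the KO controls, and 609 to 940 against 606 to 1505 in the WT. In RNA from a mixture of cells, fewer cells of a type and less RNA per cell cannot be told apart. Whether shifts in immune cells take part in the changes of the interferon and class I genes was not tested.

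Abca1 and 46 other genes fell, and apart from fatty acid oxidation no list had more than 2 members among them. Il18, an interleukin made by the epithelium, was one of those with no overlap between the diets. Without the drug Il18 stood at 603, 569, 770 and 1006 in WT and at 941, 750 and 987 in KO libraries. With it the values were 312, 297, 546 and 548 in the WT and 451, 411, 297 and 508 in the KO. All 8 ezetimibe libraries lay below all 7 controls, though WT control replicate 2, the lowest control, was close to the highest ezetimibe library. The log2 difference was -0.95 ± 0.169 (SE, adjusted p = 0.00812), and the gene lies at chr9:50554827-50581840 on the plus strand (mm10). Gnb5, a G protein subunit (-0.71), and the thioesterase Acot2 (-0.76) also had no overlap, against 0.434% of all tested genes in either direction. For Gnb5 the margin was very small, 177.29 in WT control replicate 4 and 176.82 in KO ezetimibe replicate 4. Fcgr3, an Fc receptor of myeloid cells (-1.43), and the protease Mmp9 (-1.45) had larger falls at lower levels. The glutathione transferase Gsta4 (-0.74), the lysosomal protease Ctsl (-0.72), the annexin Anxa5 (-0.55) and the protease inhibitor Serpina1b (-0.73) fell as well. In the 15 fits without 1 library, Gnb5 and Gsta4 held in all, Acot2 in 13, Ctsl in 12, Serpina1b in 10 and Anxa5 in 7. Acot and Serpina1 genes have close copies, so their reads may be shared. Rps2, a ribosomal protein gene, fell by 0.61, held in 4 of those fits, and may share reads with pseudogenes.

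Genes of fatty acid oxidation, which the receptor PPAR alpha switches on, were lower in 3 of 18 tested, against 0.329% of all tested genes that fell, and higher in none. Ppara itself fell by 0.68 (adjusted p = 0.0485), Cpt1a, which admits fatty acids to mitochondria, by 0.38 (adjusted p = 0.0350) and Ech1, an isomerase of the same pathway, by 0.30 (adjusted p = 0.0350). The list's median was -0.24, with -0.06 in the WT and -0.46 in the KO. None of the 18 was called without WT control replicate 2, WT control replicate 4, WT ezetimibe replicate 3, KO control replicate 1, KO control replicate 3, KO ezetimibe replicate 2 or KO ezetimibe replicate 3, each left out alone, and 1 was without WT ezetimibe replicate 4 or KO control replicate 2. The thioesterase Acot1, a PPAR alpha target outside the list, fell by 1.29 (adjusted p = 0.0330) and held in 8 of the 15 fits that left out 1 library. Its difference was -0.61 in the WT and -2.10 in the KO (limma interaction, adjusted p = 0.681). Of 9 goblet cell genes Agr2 (-0.34) and Spink4 (-0.50) fell, against 0.329% of all tested genes. Muc2, the main mucin, had 0.11 and did not pass. Of 7 tuft cell genes Sh2d6 rose (0.52, adjusted p = 0.0493), against 1.29% of all tested genes, and the median was 0.45. Agr2 held in 3, Spink4 in 8 and Sh2d6 in 2 of the 15 fits that left out 1 library.

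Several programmes of the absorptive cell showed no called member, where 1.62% of all tested genes were called. None of 14 genes of chylomicron assembly passed (median 0.01; Apoa1 had -0.28), none of 12 genes of fatty acid uptake and triglyceride resynthesis (median -0.03), none of 8 genes of bile acid handling (median -0.10), none of 15 of drug metabolism (median -0.27) and none of 16 of the stress response of the endoplasmic reticulum (median -0.05). Of 13 tested genes of fatty acid synthesis, only Slc25a1, the mitochondrial citrate carrier, rose (0.40, adjusted p = 0.00529), while Fasn had 0.31 and Scd1 -0.85, with no call. None of 10 enterocyte markers (median 0.09), 8 stem cell markers (median -0.20), 12 markers of dividing cells (median -0.04) or 8 Paneth cell markers (median -0.63) passed. The Paneth median was -1.08 in the WT and -0.11 in the KO. The WT libraries were uneven and overlapped. The Paneth marker Lyz1 was 7736, 24782, 8884 and 25521 in the WT controls. With ezetimibe it was 4137, 13627, 3477 and 8026 in the WT. The calls of these lists are results of the adjusted test, and a call that was missed does not show that a gene stayed level.

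**Figure D4:**
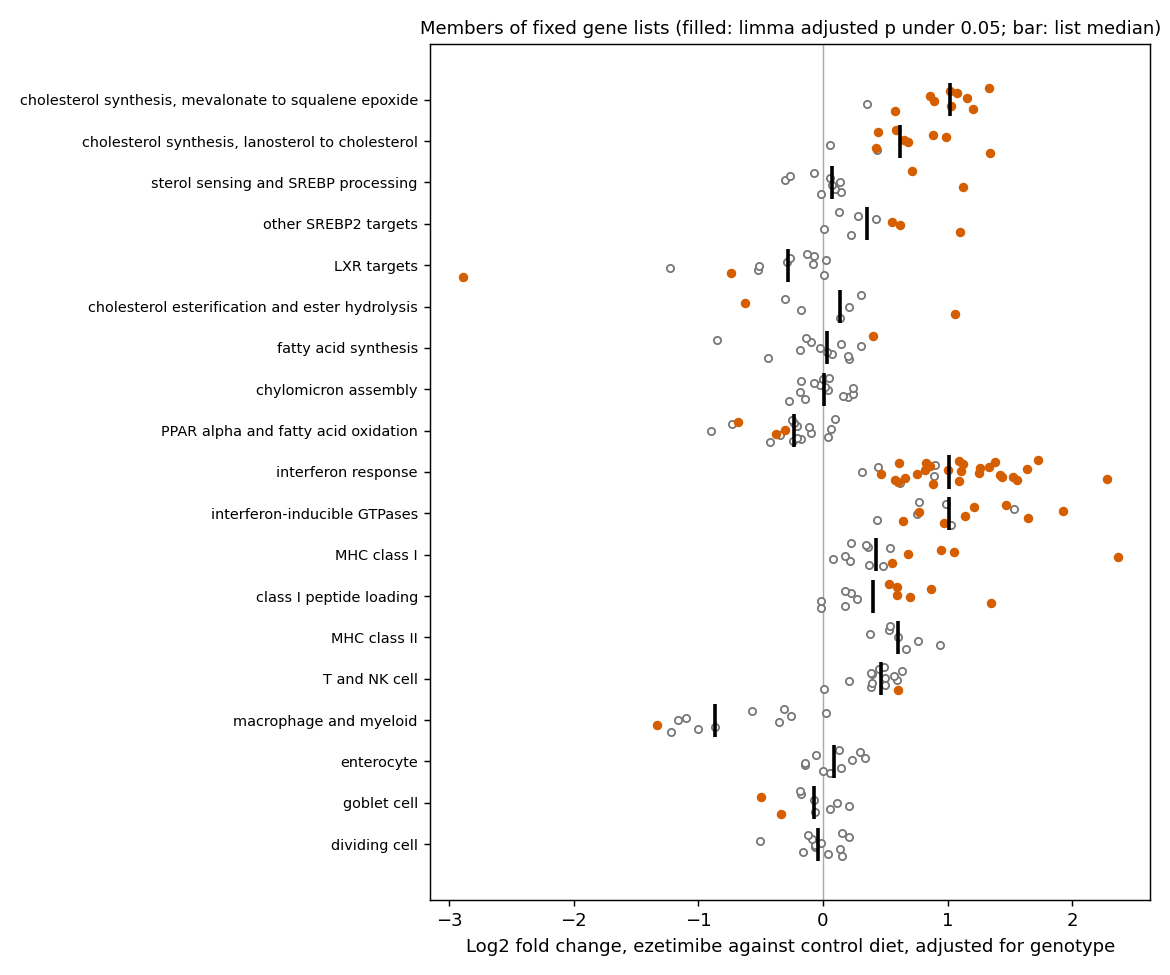
Log2 difference, ezetimibe minus control diet adjusted for genotype (horizontal axis), of the tested members of 19 gene lists (rows); each point is 1 gene, filled where its adjusted p is under 0.05, and the bar is the list's median. The synthesis and interferon lists lie to the right of 0 with most points filled, and Abca1 is the far left point.

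The same effect was then read in each genotype alone, in a fit over all 4 groups. The diet effect in WT comprised 31 genes (0.217% of those tested) and the diet effect in KO 104 genes (0.727%). Leaving out 1 library moved these counts to between 17 and 60 in the WT and between 5 and 456 in the KO. In the WT it was 20 with control replicate 3 left out, 17 with ezetimibe replicate 2 left out, 18 with ezetimibe replicate 4 left out and 60 with KO ezetimibe replicate 4 left out. In the KO it moved by over 1.5 times without any library but WT control replicate 4, the lowest being without KO control replicate 1 and the highest without KO ezetimibe replicate 4. Of the 231 genes of the shared estimate, 18 were called in each genotype alone, 13 in the WT only, 41 in the KO only and 159 in neither. All 31 genes called in the WT had the same sign in the KO, 30 of them with an unadjusted p under 0.05 there, which 22.9% of all tested genes had in the KO. Of the 104 called in the KO, 94 had the same sign in the WT and 48 of them an unadjusted p under 0.05 there, against 5.08% of all tested genes. A further 45 genes were called in the KO and not in the shared estimate.

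Many interferon genes were called by the shared estimate and in neither genotype alone. Ifit1, Ifit3, Ifit1bl1, Oas2, Oasl2, Herc6, Trim12a, Trim30a, Parp12 and Ube2l6 were the 10 genes with the smallest p among those called in neither genotype alone, and each is known as an interferon-stimulated gene. In Ifit1 the difference was 1.60 in the WT (adjusted p = 0.0783) and 1.44 in the KO (adjusted p = 0.0574). In Oas2 it was 1.73 (adjusted p = 0.0587) and 1.52 (adjusted p = 0.0553). By contrast Abca1, Msmo1, Insig1, Cyp51, Idi1 and Nsdhl were called in each genotype alone.

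No gene differed between the genotypes in its response at an adjusted p under 0.05 (0.0% called by limma, smallest adjusted p 0.681), with 1004 genes at an unadjusted p under 0.05. DESeq2 on the recovered reads called 5 and edgeR and limma-voom 0. Among the 231 genes, 24 had an unadjusted interaction p under 0.05. The 6 with the smallest were Mvk, Acot1, Abca1, Gbp4, Elmo1 and C4b. Mvk rose by 1.33 in the WT and 0.77 in the KO (limma interaction, adjusted p = 0.681). Its controls stood at 129 to 163 in the WT and 213 to 242 in the KO, and its ezetimibe libraries at 349 to 411 and 338 to 438, so the genotypes overlapped on ezetimibe and not on the control diet. Abca1 also had unlike controls, 1446 to 2299 in the WT and 439 to 641 in the KO (limma interaction, adjusted p = 0.681). Gbp4 (0.34 and 1.00), Elmo1, a regulator of cell migration (0.32 and 0.90), and the complement gene C4b (0.68 and 1.93) had larger differences in the KO, the WT given first. Gbp4 held in 13, C4b in 10 and Elmo1 in 9 of the 15 fits without 1 library.

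Finally, 4 genes outside the lists were picked after their values were seen. Csta2, a cystatin-like protease inhibitor gene, was at 1.62 to 6.18 in the controls and 16.9 to 86.4 on ezetimibe, with no overlap (log2 difference 2.93 ± 0.332, adjusted p = 0.000155). Vmn2r-ps126, annotated as a pseudogene of vomeronasal receptors, was at 0 to 8.17 in the controls and 15.1 to 45.4 on ezetimibe (3.07 ± 0.398, adjusted p = 0.000584). Both had low levels, and the log2(value + 1) scale makes such changes look smaller. Xdh, which encodes xanthine dehydrogenase, was at 6477 to 11757 in the controls and 12012 to 28173 on ezetimibe, again with no overlap (0.80 ± 0.172, adjusted p = 0.0250), and held in 9 of the 15 fits without 1 library. Aldoc, a glycolytic aldolase, rose by 1.32 ± 0.201 (adjusted p = 0.00263) and held in each of those 15 fits.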

How the data were processed

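Total RNA of distal jejunum was extracted with TRIzol and libraries were made with a NEBNext Ultra II kit, per the labels' protocols. DESeq2, the aligner STAR 2.6.0c, FastQC and genome build mm10 are named in the submitters' processing notes. The sources used here do not give the read counter, the annotation or the strand setting. A gene and its antisense partner were therefore not told apart. The unit of the deposited table, 26844 genes by 15 libraries, is a signal: read counts that the authors divided by DESeq2 size factors, per the file headers. Whole reads were recovered for 100% of values (tolerance 0.01), 13855034 to 19307079 per library. The authors' own tables of KO against WT were not used. Of the identifiers, 26825 matched GENCODE M21 on the same assembly.

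The main test was limma 3.58.1 (R 4.3.3) with its trend option, run on log2(value + 1), with genotype and diet as terms, two-sided, adjusted by Benjamini-Hochberg over the 14299 genes that reached 10 in 3 or more libraries, and called under 0.05. A second fit over the 4 groups gave the effect in each genotype and their difference. Differences are on this log2 scale, which understates changes of low genes. Depth and mitochondrial share were compared by exact permutation of diet within genotype. Alternatives were other pseudocounts, filters and scalings, a replicate block, no genotype term, edgeR 4.0.16, limma-voom and DESeq2 1.42.0 on the recovered reads, and each library left out. The scripts were tested on simulated data.

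The members and lists were chosen with earlier results of these data known. Named genes are the Gramd1 genes and Npc1l1, the 15 highest and 15 lowest changes among called genes with a mean of at least 50 in a group, every called list member, up to 2 members of a list with none called, the 10 smallest p among genes called in neither genotype alone and the 6 smallest interaction p. Other list members, Fcgr3, Mmp9, Csta2, Vmn2r-ps126, Xdh, Aldoc and Ptprc were named after their values were seen. Some members of the lists are counted and not reported here by name.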

Additional observations from a re-analysis of the deposited data

How the results depend on the processing

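The diet effect adjusted for genotype called 231 genes. It called 620 with the replicate block (68.2% higher), 140 with no genotype term, 354 as the mean of the within-genotype effects, 638 with DESeq2 (61.6% higher), 103 when WT control replicate 4 and KO ezetimibe replicate 3 were left out (an alternative chosen after seeing the data) and 113 to 531 without 1 library. Other alternatives stayed within 1.5 times. Of the 231 genes, edgeR also called 217, limma-voom 201, quantile normalisation 221, DESeq2 229 and the replicate block 230. The diet effect in WT called 31 genes, 54 with the replicate block, 94 with DESeq2 and 17 to 60 without 1 library. The diet effect in KO called 104 genes, 54 with no filter, 330 with a mean of at least 50, 1915 with the replicate block, 41 with limma-voom, 1155 with DESeq2 and 5 to 456 without 1 library. The genotype by diet interaction called 0 genes with limma, 5 with DESeq2 and 0 to 1 without 1 library. Interferon response members called were 26, 17 when WT control replicate 4 and KO ezetimibe replicate 3 were left out, and 19 to 29 without 1 library. Cholesterol synthesis members called were 17, and 15 to 18 without 1 library. Whether the replicate numbers pair the samples is not settled: the labels do not say so, and the deviations of same-numbered libraries correlated at -0.242 to 0.331 over 21 pairs, 12 of them over 0.1, short of the rule that every pair exceed it. Differently numbered libraries were not correlated for comparison, so these values cannot settle the pairing. The replicate block therefore stands as an alternative. For single genes and lists, 5502 of the recomputed values kept their direction and call, 391 lost the call, 28 gained it, 154 counts moved and 0 reversed. The all-gene median moved from -0.0011 to -0.0065 with TMM scaling and -0.0032 with quantile normalisation. The causes of these moves were not tested.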

Other observations

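The genes below were called, lie outside the lists and were picked for mention after their values were seen. Erg28, a membrane protein that gathers late sterol enzymes, rose by 0.44 (log2 difference, limma adjusted p = 0.00924), and Rdh11, a retinal reductase, by 0.50 (adjusted p = 0.00500), with each ezetimibe library of Rdh11 above each control library. Unlisted genes known to respond to interferon that rose include Rnf213 (1.34), an E3 ligase, Ddx60 (1.20), an RNA helicase, Sp100 (0.87), a nuclear body protein, Parp11 (0.86) and Parp10 (0.41), which attach ADP-ribose, Slfn2 (0.85) and Lgals3bp (0.70). Their adjusted p lay between 0.00117 and 0.0107, and each was called in all 15 fits that left out 1 library. Among genes that fell, Eci2 (-0.39) and Hsdl2 (-0.42), which act on fatty acids in mitochondria and peroxisomes, were also called in all 15 of those fits. The mitochondrial genes Ndufb6 (-0.34) and Fh1 (-0.27) fell at adjusted p = 0.0250 and 0.0493 and were not.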
